A study of Ambystoma mexicanum with 18 samples.

Results

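Cytosolic ribosomal protein genes were followed in distal blastema cells of the axolotl that had been electroporated with Tig1 or with its mutant form. The symbols of these genes begin with RPL, RPLP or RPS and a number, and a gene model was kept where it reached 0.5 CPM (counts scaled to a common library size) in at least 3 libraries. Of 99126 gene models in the count table, 190 had such a symbol and 131 of these passed the filter, while 59 did not. The 131 gene models carried 69 different symbols once the endings .L and .S were dropped, with 47 models of small-subunit and 84 of large-subunit proteins. All 131 were among the 25377 genes tested, and each gene model is counted as a gene below.

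All cells came from the Hoxa13:mCherry transgenic line, in which the reporter is expressed from the Hoxa13 locus and labels the hand field of the regenerating forelimb. Forelimbs were amputated near the elbow, and the blastemas were electroporated when the mCherry+ domain had appeared. The 6 groups were Tig1 cells (mCherry+/GFP+, carrying wild-type Tig1 joined to GFP by a T2a peptide), Tig1P155A cells (mCherry+/GFP+, carrying the same construct with a mutation in the latexin domain) and control cells (mCherry+/GFP-, described as non-transfected), each at 3 and at 8 days post electroporation (dpe). Each group had 3 libraries, each made by the SMARTseq2 protocol from 300 sorted cells, and blastemas were pooled for each condition. The epidermis was removed before dissociation. Control cells also came from electroporated blastemas, of a construct that the sources used here do not give. None of the 6 groups held cells electroporated with GFP alone. Tig1, GFP and sorting for GFP thus differ together in every comparison with control. The animals are described by body length and not by age. The study calls the libraries biological replicates without saying whether each had its own pool. The p-values below thus set differences against the spread between these libraries, which need not be the spread between pools or animals.

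The cytosolic ribosome joins a small subunit, which reads the messenger RNA, to a large subunit, which forms the peptide bond. The proteins of both subunits are made in nearly equal numbers, are assembled on ribosomal RNA in the nucleolus and are among the most abundant products of growing cells. In vertebrates their messenger RNAs start with a tract of pyrimidines through which mTOR signalling adjusts translation.

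Total counts lay between 9732514 and 23086124 per library, and 3 counts corresponded to between 0.0871 and 0.455 TMM-scaled CPM. Mitochondrial genes took between 18.4% and 65.4% of the counts, and 4 libraries, all of Tig1 or Tig1P155A cells, exceeded 50%. Tig1 itself was not analysed here, so the labels of the overexpressing cells were not checked against its level. Markers of other cells differed strongly between the groups. The 14 myeloid markers with a gene model, all of which rose on average over both forms and times, summed to 8816 to 9889 TMM-scaled CPM with Tig1, 10280.1 to 12326 with Tig1P155A, against 2.004 to 118.8 in controls at 3 dpe. At 8 dpe the myeloid sums were 5097 to 9113 with Tig1, 5187 to 8495 with Tig1P155A, against 26.9 to 33.1 in controls. Of the 15 connective tissue markers 14 fell on average, and they summed to 975 to 2278 with Tig1, 826 to 1678 with Tig1P155A, against 6077 to 11577 in controls at 3 dpe. At 8 dpe they summed to 3332 to 11179 with Tig1, 3605 to 4584 with Tig1P155A, against 13745 to 19703 in controls. COL5A1 was at 0 in every library of Tig1P155A cells at both times and of control cells at 3 dpe, and no other connective tissue marker was at 0 throughout a group. The 10 distal limb markers, 9 of which fell on average, summed to 21.99 to 143 with Tig1, 9.94 to 46.1 with Tig1P155A, against 299 to 464 in controls at 3 dpe, and to 64.6 to 124 with Tig1, 86.4 to 154.7 with Tig1P155A, against 335 to 440.0 in controls at 8 dpe. The 3 neutrophil markers with a gene model all rose on average, and over both times they summed to 184 to 413 with Tig1, 190.2 to 723 with Tig1P155A, against 1.64 to 10.4 in controls. Epidermal markers (7 with a gene model, 1 of 5 tested fell on average) summed to 123 to 234 with Tig1, 42.6 to 198 with Tig1P155A, against 516 to 655 in controls at 3 dpe, and overlapped between the groups at 8 dpe. Lymphocyte markers (8 with a gene model, 2 of 6 tested rose) summed to 5.95 to 16.5 with Tig1, 5.39 to 13.5 with Tig1P155A, against 0.0581 to 0.590 in controls over both times. Of them, LCK, CD79A, CD79B and RAG1 were at 0 in every Tig1P155A library at both times, and PAX5 and IL7R in those at 8 dpe. RAG1 was also at 0 in every Tig1 library, and CD79B in those at 8 dpe. In control cells, LCK, CD79A, CD79B and RAG1 were at 0 in every library at 3 dpe. At 8 dpe CD247, LCK, CD79A, CD79B and PAX5 were at 0 in every control library. Endothelial markers (9 with a gene model, 1 of 8 tested rose) overlapped between overexpressing and control cells at 3 dpe, and at 8 dpe summed to 9.86 to 169.7 with Tig1, 9.05 to 14.04 with Tig1P155A, against 18.4 to 59.0 in controls. Muscle markers (7 with a gene model, of which 2 fell and 1 rose) overlapped at 3 dpe and lay apart at 8 dpe, at 95.8 to 590.1 with Tig1, 74.4 to 609.8 with Tig1P155A, against 14.7 to 52.0 in controls. Erythroid markers (5 with a gene model, 2 of which fell) summed to 276 in the first control library at 3 dpe and to at most 5.36 in any other library. CLDN4 of the epidermal list was at 0 in every library. The part of these markers in the results below was not tested. In bulk libraries, fewer cells of a type and less RNA per cell cannot be told apart.

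The first question was how much of each library the ribosomal protein genes took up. They held a smaller share of all counts, and of the non-mitochondrial counts, in cells overexpressing either form of Tig1 than in control cells at 3 dpe. At that time the 131 genes took 2.32%, 1.49% and 2.26% of all counts with Tig1, 1.58%, 2.45% and 2.29% with Tig1P155A, against 5.47%, 4.40% and 3.94% in controls. The groups did not overlap, and the means were 2.02% ± 0.46 with Tig1, 2.11% ± 0.46 with Tig1P155A, against 4.605% ± 0.78 in controls (SD, n = 3 each). At 8 dpe the shares were 1.80%, 2.11% and 1.47% with Tig1, 1.53%, 2.14% and 2.87% with Tig1P155A, against 2.86%, 3.14% and 2.94% in controls. All 3 libraries of Tig1 cells lay below the controls, while 1 library of Tig1P155A cells lay inside their range.

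Mitochondrial counts entered these shares, so they were also taken over the non-mitochondrial counts. On that base the 131 genes took 2.84%, 4.29% and 3.56% with Tig1, 3.70%, 3.16% and 3.02% with Tig1P155A, against 8.17%, 5.77% and 5.75% in controls at 3 dpe. The highest overexpressing library stayed below the lowest control, and the first control library stood apart from the other two. The means were 3.56% ± 0.73 with Tig1, 3.29% ± 0.36 with Tig1P155A, against 6.56% ± 1.39 in controls, or ratios of 0.543 for Tig1 and 0.501 for Tig1P155A. Without the first control library the control mean was 5.76%, and the ratios were 0.619 for Tig1 and 0.571 for Tig1P155A. At 8 dpe the shares were 3.28%, 2.76% and 3.12% with Tig1, 4.16%, 3.02% and 3.68% with Tig1P155A, against 3.85%, 5.75% and 4.11% in controls. Here Tig1 cells again lay below all controls and Tig1P155A cells overlapped with them. On the TMM scale, which is used for the single genes below, the summed levels overlapped at 3 dpe. They were 21281, 29082 and 25700.4 TMM-scaled CPM with Tig1, 27763, 23922 and 22711 with Tig1P155A, against 49982, 29537 and 27265 in controls, with ratios of the means of 0.712 for Tig1 and 0.697 for Tig1P155A. These ratios lean on the first control library, far above the other controls, and are not given without it. Leaving it out, the median log2 fold change of the 131 genes on that scale was 0.06 for Tig1 and -0.16 for Tig1P155A. Over all genes it was then 0.08 and 0.00. At 8 dpe the groups overlapped on that scale too, and the ratios were 0.860 for Tig1 and 1.01 for Tig1P155A. These shares are descriptions of the family, and no test was made on them.

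**Figure D1:**
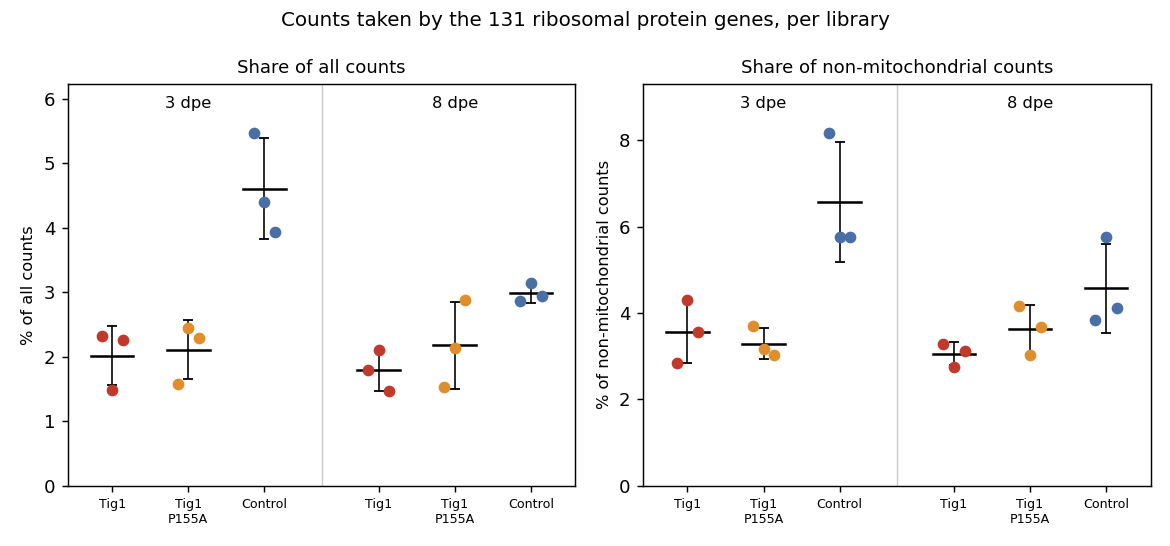
Share of the counts of each library (vertical axes, % of all counts on the left and % of non-mitochondrial counts on the right) taken by the 131 ribosomal protein genes, in Tig1, Tig1P155A and control cells at 3 and 8 dpe. Points are libraries, horizontal bars are means and error bars are SD (n = 3); at 3 dpe all 6 libraries of Tig1 and Tig1P155A cells lie below the 3 controls on both bases.

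The small and the large subunit were then compared within each library. Small-subunit genes had 0.580 ± 0.015 counts for each large-subunit count with Tig1, 0.581 ± 0.035 with Tig1P155A, against 0.555 ± 0.020 in controls at 3 dpe (SD, n = 3 each). At 8 dpe the ratio was 0.537 ± 0.011 with Tig1, 0.553 ± 0.020 with Tig1P155A, against 0.519 ± 0.005 in controls. The libraries overlapped at 3 dpe, whereas at 8 dpe all 6 overexpressing libraries lay above the 3 controls by a small margin. On the log2 scale the ratio with Tig1P155A differed from control by 0.07 at 3 dpe and by 0.02 without the first Tig1P155A library. No test was made on these ratios.

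Gene by gene, the question was which ribosomal protein genes differed from control cells on the scale of all genes, TMM-normalised counts tested with edgeR's quasi-likelihood test at a Benjamini-Hochberg adjusted p under 0.05. At 3 dpe, 14 of the 131 genes fell in Tig1 cells, beside 8.35% of all genes tested, and none rose, beside 15.3%. In Tig1P155A cells 20 fell, beside 11.5%, and none rose, beside 15.2%. All 14 genes that fell with Tig1 were among the 20 that fell with Tig1P155A; these comparisons share their control libraries. The shares of the family that fell were thus near those of all genes. The median log2 fold change of the 131 genes was -0.36 for Tig1 and -0.58 for Tig1P155A, with 0.00 over all genes in both comparisons. At 8 dpe no ribosomal protein gene passed the test in either direction. Among all genes, 1.34% fell and 10.6% rose in Tig1 cells, and 1.73% fell and 10.6% rose in Tig1P155A cells. With an unadjusted p under 0.05 there were 7 ribosomal protein genes with Tig1, all lower, beside 24.4% of all genes in either direction, and 0 with Tig1P155A, beside 24.2%, and DESeq2 called 1 with Tig1 and 0 with Tig1P155A. These DESeq2 counts stand without its share of all genes and are not results about the family. The lowest adjusted p at 8 dpe was 0.0764 by edgeR, for a minor gene model of RPL36 in Tig1 cells. The medians at 8 dpe were -0.23 for Tig1 and 0.15 for Tig1P155A.

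The average of the 4 comparisons with control gave each gene 1 value over both forms and both times. On average 20 of the 131 genes fell, beside 18.7% of all genes, and none rose, beside 21.1%, with 1 gene higher (RPS26) among the 28 at an unadjusted p under 0.05, beside 48.2% of all genes at that level. On the TMM scale the family was thus called lower no more often than all genes were. Of the 20 that fell, 9 belong to the small and 11 to the large subunit. These are gene models, and RPS2 and RPL36 each stand among them with more than 1 model. All of them were among the 68 gene models with a mean of at least 10 CPM, and none of the 63 below that level was called. The 63 held 0.413% of the counts of the family. Of the 20, 17 were called lower at 3 dpe with at least 1 form. The average includes the comparisons at 3 dpe, so this overlap is no separate support. The median log2 fold change was -0.21 over the 131 genes and 0.05 over all genes.

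Scaling set how many genes were called, and none rose on any of the 5 scales tried. The number that fell on average was 28 with DESeq2's size factors (21.4% of all genes), 60 with library size alone (29.8%), 36 with mitochondrial genes left out (21.6%) and 56 with mitochondrial genes left out and library size alone (26.4%). The median of all genes moved with the scale as well, to -0.05, -0.52, -0.10 and -0.30, against 0.05 with TMM. The median of the ribosomal protein genes minus that of all genes lay between -0.32 and -0.26 on the 5 scales.

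The first control library at 3 dpe weighed heavily on these values. Its ribosomal protein genes summed to 49982 TMM-scaled CPM, against 29537 and 27265 in the other controls of that time. Without it, the genes that fell at 3 dpe numbered 3 for Tig1, beside 6% of all genes, and 2 for Tig1P155A, beside 8.31%, and 11 fell on average, beside 15.8%, all of them among the 20. Each of these counts was a smaller share of the family than the share of all genes beside it. The median then was 0.06 for Tig1 and -0.16 for Tig1P155A at 3 dpe and -0.01 on average, with 68 of the 131 genes below 0, against 0.08, 0.00 and 0.09 over all genes. With mitochondrial genes left out and library size alone, 43 genes still fell on average without that library, beside 24.9% of all genes, with a median of -0.48 and -0.30 over all genes. Other single libraries moved the counts at 3 dpe as well. With Tig1, 24 genes fell without the third control library (8.41% of all genes), 8 without the second Tig1 library (6.18%) and 7 without the third (5.14%). With Tig1P155A, 9 fell without the first Tig1P155A library (7.70% of all genes), 13 without the second (10.3%) and 12 without the third (7.55%). When the 4 libraries with over 50% mitochondrial counts were left out, 8 genes fell in the Tig1 comparison at 3 dpe (8.69% of all genes), 10 in the Tig1P155A comparison (11.6%) and 16 on average (20.5%).

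**Figure D2:**
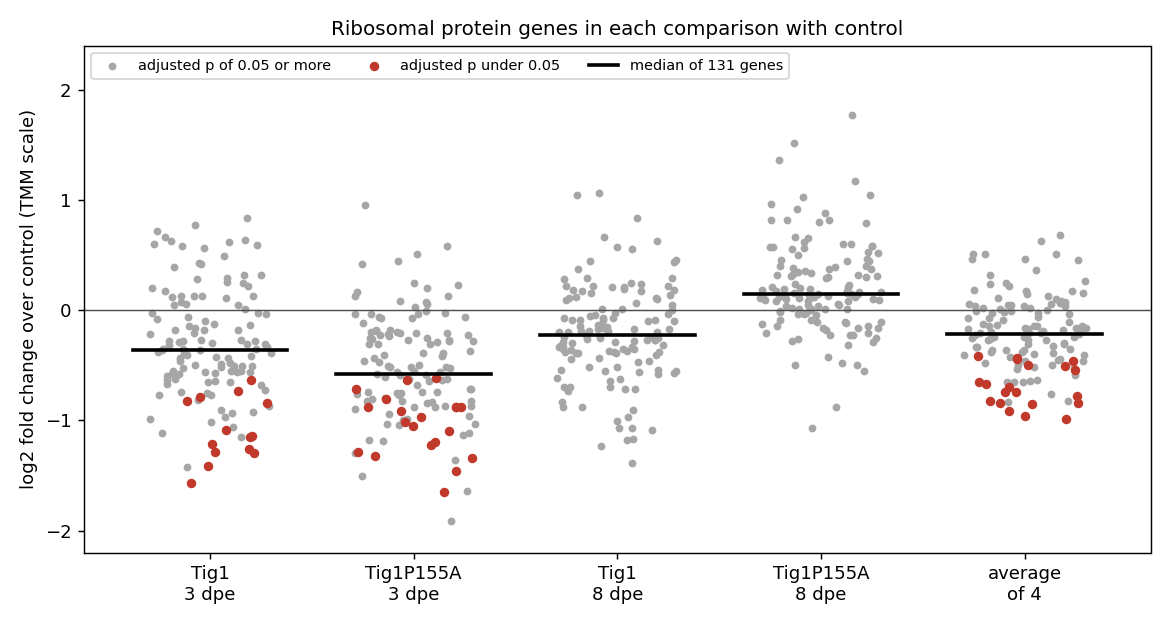
Log2 fold change over control on the TMM scale (vertical axis) of the 131 ribosomal protein genes in each of the 4 comparisons and in their average. Each point is a gene, red where edgeR's adjusted p was under 0.05, and black bars are medians, at -0.36, -0.58, -0.23, 0.15 and -0.21 from left to right; no red point lies above 0.

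A second reading, made library by library, asked in how many genes all 6 libraries of Tig1 and Tig1P155A cells lay beyond all 3 controls of the same time. At 3 dpe 17 genes were lower in all 6, beside 14.7% of all genes, and 0 were higher in all 6, beside 15.8%. Among them were RPL23, RPL30, RPS15, RPS15A and RPS4X, besides those described below. At 8 dpe the counts were 2 lower, beside 9.61%, and 0 higher, beside 13.1%. The 2 were RPL4 and a minor gene model of RPLP0.L with 0.521 CPM on average, both named after their values were seen.

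Of the small-subunit genes, RPS2 had the lowest average log2 fold change. Its protein, uS5, lies at the entry channel of the messenger RNA, and its main gene model stands on chromosome arm 2p at 299042559 to 299058026 (AmexG_v6.0-DD). At 3 dpe RPS2 had 209.8, 229 and 211 TMM-scaled CPM with Tig1, 301, 331 and 208 with Tig1P155A, against 962, 567 and 400.2 in controls. All 6 overexpressing libraries lay below the lowest control. At 8 dpe RPS2 had 308, 285 and 170.3 TMM-scaled CPM with Tig1, 216, 284 and 371 with Tig1P155A, against 447, 468 and 318 in controls, and 5 of the 6 lay below all controls. RPS2 fell on average by edgeR (-0.99 ± 0.19 (SE), adjusted p = 0.000296). A further RPS2 model on an unplaced contig, with a mean of 136 CPM, fell by 0.82 (adjusted p = 0.000949), and reads of near-identical copies can be split between such models. Without the first control library at 3 dpe the main model was at -0.79 (adjusted p = 0.00178).

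RPS12 and RPS13 are further proteins of the small subunit. RPS12 had 91.9, 82.8 and 89.3 TMM-scaled CPM with Tig1, 93.7, 67.3 and 73.6 with Tig1P155A, against 352, 122 and 113 in controls at 3 dpe. The first control library was far above the others, and all 6 overexpressing libraries lay below all controls. RPS12 fell on average (-0.85 ± 0.22 (SE), adjusted p = 0.00371), and without that library the value was -0.48 (adjusted p = 0.0325). Its log2 fold change at 8 dpe was -0.88 with Tig1 and -0.05 with Tig1P155A, neither past the threshold. RPS13 had 15.5, 16.1 and 8.70 TMM-scaled CPM with Tig1, 18.3, 12.4 and 8.21 with Tig1P155A, against 50.8, 21.0 and 12.02 in controls at 3 dpe, where the groups overlapped. It fell on average (-0.84 ± 0.28 (SE), adjusted p = 0.0217). That call was lost without the first control library at 3 dpe, at -0.46 (adjusted p = 0.188), and without the second control library at 8 dpe, at -0.74 (adjusted p = 0.064). The log2 fold change of RPS13 at 8 dpe was -1.07 with Tig1 and -0.12 with Tig1P155A, neither past the threshold.

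RPS9, which binds the ribosomal RNA early in assembly, is among the 5 genes of the family with the most counts. It had 931, 891 and 844 TMM-scaled CPM with Tig1, 719, 1047 and 803 with Tig1P155A, against 2173, 1463 and 1088 in controls at 3 dpe. All overexpressing libraries were below all controls, the nearest by a small margin. At 8 dpe RPS9 had 709, 849 and 573 TMM-scaled CPM with Tig1, 728, 757 and 1071 with Tig1P155A, against 776, 794 and 779 in controls, and the groups overlapped. RPS9 fell on average (-0.43 ± 0.16 (SE), adjusted p = 0.0335). That call was lost on leaving out the first control library at 3 dpe (-0.28, adjusted p = 0.15) or the 4 libraries with high mitochondrial counts (-0.31, adjusted p = 0.159), and with every gene of at least 1 count in the fit (-0.42, adjusted p = 0.12). It was also lost, with an adjusted p of 0.0521 to 0.0682, on leaving out the third Tig1 or the first or the third Tig1P155A library at 3 dpe, or the third Tig1, second Tig1P155A or second control library at 8 dpe.

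RPS6 and RPS26 had averages above 0. RPS6, the subunit protein that S6 kinase phosphorylates downstream of mTOR, had 642, 1375 and 1036 TMM-scaled CPM with Tig1, 1279, 962 and 806 with Tig1P155A, against 1069.7, 887 and 831 in controls at 3 dpe. At 8 dpe RPS6 had 993, 749.5 and 870.0 TMM-scaled CPM with Tig1, 991, 762 and 755 with Tig1P155A, against 614, 906 and 679 in controls. The groups overlapped at both times. Its average was 0.17 ± 0.17 (SE), adjusted p = 0.449, and the sign turned with mitochondrial genes left out (-0.04) and with library size alone (-0.45). RPS26, which lies at the exit channel of the messenger RNA, had 191, 243 and 205 TMM-scaled CPM with Tig1, 373, 157 and 197 with Tig1P155A, against 93.2, 93.5 and 187 in controls at 3 dpe. The second Tig1P155A library lay within the range of the controls, the third of which was the highest. At 8 dpe RPS26 had 62.2, 91.3 and 134 TMM-scaled CPM with Tig1, 199, 98.6 and 154 with Tig1P155A, against 31.3, 100.3 and 123 in controls, with overlap again. Its average was the highest of the 131 and missed the threshold (0.68 ± 0.28 (SE), adjusted p = 0.0607). It passed with every gene of at least 1 count in the fit (0.69, adjusted p = 0.00982), and without the third control library at 3 dpe, the third at 8 dpe or the first Tig1 library at 8 dpe (0.74 to 0.81, adjusted p of 0.0332 to 0.045). RPS3, a protein of the entry channel that also acts in DNA repair in mammals, was at 0.01 ± 0.17 (SE), adjusted p = 1, and the sign turned on all 4 other scales (-0.58 to -0.09).

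**Figure D3:**
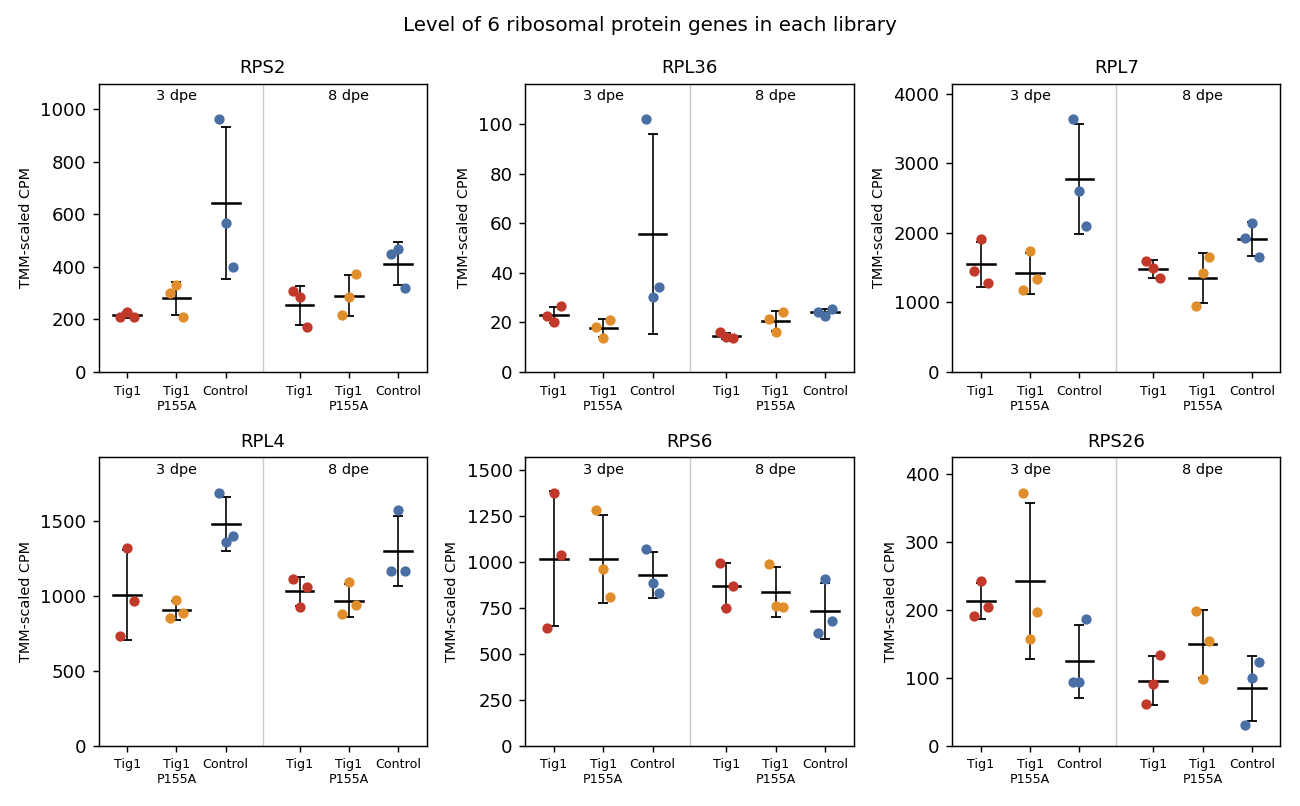
Level of RPS2, RPL36, RPL7, RPL4, RPS6 and RPS26 in TMM-scaled CPM (vertical axes, each from 0) in Tig1, Tig1P155A and control cells at 3 and 8 dpe. Points are libraries, horizontal bars means and error bars SD (n = 3); the first control library at 3 dpe is the highest of its group for the first 4 genes, and RPS6 and RPS26 overlap between groups.

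RPL7 had the most counts of the family. Its protein sits near the 5S ribosomal RNA of the large subunit, and its gene lies on chromosome arm 5q at 681803972 to 681851935. It had 1449.5, 1911 and 1282 TMM-scaled CPM with Tig1, 1177, 1746 and 1336 with Tig1P155A, against 3638, 2596 and 2094 in controls at 3 dpe, with no overlap. At 8 dpe RPL7 had 1599, 1489 and 1351 TMM-scaled CPM with Tig1, 956, 1431 and 1657 with Tig1P155A, against 1929, 2138 and 1651 in controls, and 5 of 6 overexpressing libraries lay below all controls. The average was -0.67 ± 0.16 (SE), adjusted p = 0.00198, and -0.55 (adjusted p = 0.00954) without the first control library at 3 dpe.

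RPL4 lines the exit tunnel of the nascent peptide and served the study as the reference gene of its quantitative PCR on sorted cells. It had 732, 1324 and 966 TMM-scaled CPM with Tig1, 853, 974 and 887 with Tig1P155A, against 1689, 1359 and 1401 in controls at 3 dpe. At 8 dpe RPL4 had 1114, 924 and 1059.8 TMM-scaled CPM with Tig1, 877, 1090.3 and 941 with Tig1P155A, against 1166, 1572 and 1170.4 in controls. All 12 overexpressing libraries lay below all 3 controls of their time. Of all genes, 14.7% lay so at 3 dpe and 9.61% at 8 dpe, and the share at both times is not given here. RPL4 fell on average (-0.51 ± 0.14 (SE), adjusted p = 0.00668), and was at -0.46 (adjusted p = 0.0193) without the first control library at 3 dpe. On the scale of the family itself its value was -0.23 ± 0.16, adjusted p = 0.295. The log2 fold changes at 3 dpe were -0.56 ± 0.23 for Tig1 and -0.71 ± 0.23 for Tig1P155A, and at 8 dpe -0.34 ± 0.23 for Tig1 and -0.43 ± 0.23 for Tig1P155A (SE). By edgeR their adjusted p, in that order, was 0.0868, 0.0282, 0.388 and 0.27. Only the fall with Tig1P155A at 3 dpe thus passed the test.

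The largest falls among large-subunit genes were those of RPL36 and RPL37A, both small basic proteins. RPL36 had 22.6, 20.3 and 26.7 TMM-scaled CPM with Tig1, 18.4, 13.8 and 21.0 with Tig1P155A, against 102, 30.5 and 34.3 in controls at 3 dpe. There was no overlap, although the first control library held more than both others together. At 8 dpe RPL36 had 16.1, 14.2 and 13.6 TMM-scaled CPM with Tig1, 21.4, 16.2 and 24.2 with Tig1P155A, against 24.3, 22.5 and 25.4 in controls, and all 3 libraries of Tig1 cells lay below the controls. RPL36 fell on average (-0.96 ± 0.22 (SE), adjusted p = 0.00152), and was at -0.57 (adjusted p = 0.0133) without the first control library at 3 dpe. RPL37A had 107, 92.3 and 146 TMM-scaled CPM with Tig1, 81.1, 76.6 and 149 with Tig1P155A, against 480.3, 179 and 187 in controls at 3 dpe, again with no overlap. It fell on average (-0.91 ± 0.21 (SE), adjusted p = 0.00202), and was at -0.60 (adjusted p = 0.016) without the first control library at 3 dpe. Its log2 fold change at 8 dpe was -0.88 with Tig1 and -0.01 with Tig1P155A, neither past the threshold. RPL27A had neighbouring gene models on chromosome arm 11q that overlap by their ends. The minor one fell (-0.84 ± 0.19 (SE), adjusted p = 0.00179), and was at -0.66 (adjusted p = 0.0116) without the first control library at 3 dpe. The leading one was at -0.30, so the split of reads between them is uncertain. For the minor model the log2 fold change at 8 dpe was -0.70 with Tig1 and -0.12 with Tig1P155A, neither past the threshold.

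RPL5 and RPL11 form a particle with the 5S ribosomal RNA, which in mammals binds MDM2 and so stabilises p53 when ribosome assembly fails. RPL5 had 333, 518 and 469 TMM-scaled CPM with Tig1, 505, 445 and 375 with Tig1P155A, against 805, 616 and 629.6 in controls at 3 dpe, with all overexpressing libraries below all controls. It fell on average (-0.46 ± 0.14 (SE), adjusted p = 0.0113), and was at -0.39 (adjusted p = 0.0346) without the first control library at 3 dpe. Its log2 fold change at 8 dpe was -0.28 with Tig1 and -0.29 with Tig1P155A, neither past the threshold. RPL11 had 317, 568 and 456 TMM-scaled CPM with Tig1, 623, 415 and 336 with Tig1P155A, against 805, 462 and 391 in controls at 3 dpe, with overlap. Its average was -0.16 ± 0.19 (SE), adjusted p = 0.555, and the sign turned without the first control library at 3 dpe (0.02). By edgeR, RPL11 fell with library size alone (-0.76, adjusted p = 0.00928). It also fell with library size alone and mitochondrial genes left out (-0.55, adjusted p = 0.0196). With every gene of at least 1 count in the fit, RPL5 missed the threshold (adjusted p = 0.0967).

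RPL3 and RPL10 shape the peptidyl transferase region. RPL3.L was at -0.22 ± 0.13 (SE), adjusted p = 0.178 on average, and RPL10 at -0.21 ± 0.16 (SE), adjusted p = 0.312. Both are among the 5 genes with the most counts. RPL3.L fell without the third control library at 3 dpe (-0.35, adjusted p = 0.0415). It also fell on all 4 other scales (-0.79 to -0.33, edgeR adjusted p of 5.64e-05 to 0.0447), where the median of all genes was lower too. RPL10 missed the threshold with DESeq2's size factors (-0.32, adjusted p = 0.117). It fell on the other scales, by -0.42 (adjusted p = 0.0374) with mitochondrial genes left out. RPLP0 and RPLP2 build the stalk that recruits elongation factors. RPLP0.L was at -0.36 ± 0.15 (SE), adjusted p = 0.0584, and past the threshold on all 4 other scales (-0.90 to -0.47, edgeR adjusted p of 5.25e-05 to 0.016). It also passed without the second Tig1 library at 3 dpe or any of 4 controls, the second or the third at 3 dpe and the first or the third at 8 dpe (-0.50 to -0.39, adjusted p of 0.0161 to 0.0448). RPLP2 was at -0.20 ± 0.16 (SE), adjusted p = 0.37. By edgeR, RPLP2 fell with library size alone (-0.77, adjusted p = 0.0166). It also fell with library size alone and mitochondrial genes left out (-0.59, adjusted p = 0.0027). RPL7L1, a relative of RPL7 that in mammals acts in processing of the large-subunit RNA, had 54.8, 53.5 and 35.1 TMM-scaled CPM with Tig1, 59.0, 70.2 and 49.4 with Tig1P155A, against 179, 119 and 84.4 in controls at 3 dpe. It did not overlap between groups there and fell on average (-0.75 ± 0.19 (SE), adjusted p = 0.00326), with -0.58 (adjusted p = 0.0189) without the first control library at 3 dpe. Its log2 fold change at 8 dpe was -0.19 with Tig1 and -0.28 with Tig1P155A, neither past the threshold.

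The other genes that fell on average were RPS15A (-0.74), RPS3A (-0.70), RPL30 (-0.65), RPL26 (-0.54), RPS15 (-0.49), RPL10A (-0.44), RPS4X (-0.42) and a minor RPL36 model (-0.78), with adjusted p between 0.0045 and 0.0351 by edgeR. These were not chosen by the rule for named genes. Of them, RPS15A alone was called without the first control library at 3 dpe (-0.46, adjusted p = 0.0329).

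To ask which genes differed from the rest of the family, counts were set against the sum of the ribosomal protein counts. On that scale 6 of the 131 gene models were lower on average, beside 12.2% of all genes, and 2 were higher, beside 23.5%. RPS2 was the lowest (-0.67 ± 0.18, adjusted p = 0.00594, edgeR), followed by RPL36 (-0.61 ± 0.21, adjusted p = 0.0266), RPL37A (-0.58 ± 0.21, adjusted p = 0.0373), the minor RPL27A model (-0.54 ± 0.18, adjusted p = 0.0239), the second RPS2 model (-0.52) and RPS12 (-0.48 ± 0.18, adjusted p = 0.0413). RPS26 (0.89 ± 0.30, adjusted p = 0.0264) and RPS6 (0.44 ± 0.17, adjusted p = 0.0464) were higher. RPS26 made up 0.843% ± 0.051 of the ribosomal protein counts with Tig1, 0.956% ± 0.351 with Tig1P155A, against 0.396% ± 0.259 in controls at 3 dpe (SD, n = 3 each). RPS2 made up 0.865% ± 0.106 with Tig1, 1.13% ± 0.24 with Tig1P155A, against 1.77% ± 0.26 in controls.

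Most of these calls were close to the threshold. That of the main RPS2 model held without each library in turn (-0.73 to -0.60). That of RPS6 held only without the first Tig1 library at 3 dpe, the second Tig1 library at 8 dpe or the third Tig1P155A library at 8 dpe. It was lost without each of the other 15 (0.37 to 0.48, adjusted p of 0.0503 to 0.103) and with each of 3 other settings (adjusted p of 0.0636 to 0.149). RPS12 lost its call without any of 12 libraries (-0.52 to -0.33, adjusted p of 0.0522 to 0.138) and with both other scalings by the family (adjusted p = 0.0751 and adjusted p = 0.0613). It was kept only without the first Tig1 library of either time, the first Tig1P155A library of either time or the second or the third control at 3 dpe. RPL37A was called only without the first or the third Tig1 or the third Tig1P155A library at 3 dpe, the second or the third control at 3 dpe, the second Tig1 or first Tig1P155A library at 8 dpe or the second control at 8 dpe, and was lost without each of the other 10 (adjusted p of 0.0502 to 0.104). RPS26 lost its call without the first or second control of either time (0.70 to 0.89, adjusted p of 0.0519 to 0.08), and RPL36 without the first control at 3 dpe or the first or the third at 8 dpe (-0.58 to -0.44, adjusted p of 0.0642 to 0.0969). The minor RPL27A model lost its call without the third control of either time (adjusted p = 0.0517 and adjusted p = 0.0557). RPL7L1 was called without the second control at 8 dpe (-0.57, adjusted p = 0.0411).

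**Figure D4:**
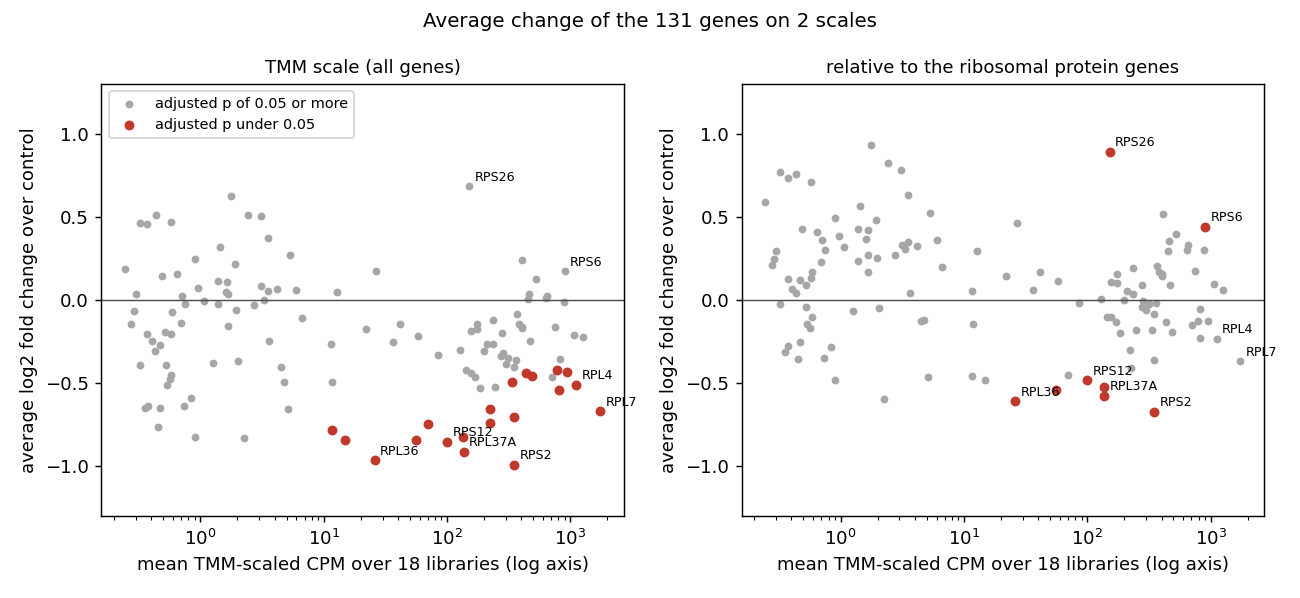
Average log2 fold change over control (vertical axes) against mean TMM-scaled CPM over 18 libraries (horizontal log axes) for the 131 ribosomal protein genes, on the TMM scale of all genes (left) and relative to the sum of the ribosomal protein counts (right). Red points have an edgeR adjusted p under 0.05, 20 on the left and 8 on the right, and those on the left all lie below 0 and above 10 CPM.

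The forms and the times were compared directly. Between Tig1 and Tig1P155A cells, averaged over both times, edgeR and DESeq2 called 0 ribosomal protein genes. edgeR called 0% of all genes tested, and 2 ribosomal protein genes had an unadjusted p under 0.05, beside 6.84% of all genes. The median difference was -0.12, with a median SE of 0.341, so differences of that size could not be resolved gene by gene. The lowest adjusted p was 0.709, for RPL37.

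From 3 to 8 dpe, ribosomal protein genes tended to lower values in control cells without passing the test. At 8 against 3 dpe, 124 of the 131 genes had a log2 fold change below 0 in control cells, with a median of -0.73 and 0.03 over all genes. By edgeR 0 were called, beside 0.485% of all genes, with 38 at an unadjusted p under 0.05, all lower, beside 8.99% of all genes in either direction, and 5 by DESeq2. Without the first control library at 3 dpe the median was -0.33, with 119 genes below 0, against a median of 0.06 over all genes. In Tig1 cells the median was -0.58, with 0 called by edgeR (0.0473% of all genes), 14 at an unadjusted p under 0.05 (12.3% of all genes) and 1 by DESeq2. In Tig1P155A cells it was 0.01, with 0 called by either tool (1.28% of all genes by edgeR) and 0 at an unadjusted p under 0.05 (13.4% of all genes). DESeq2's share of all genes is not given here, so its counts are not results about the family. RPS9 had the lowest adjusted p of control cells, 0.109, with a log2 fold change of -1.01 ± 0.26 (SE) by edgeR.

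The overexpression effect at 8 dpe minus that at 3 dpe had a median of 0.45 over the 131 genes. None passed the test by edgeR, beside 0.209% of all genes, and none by DESeq2, whose share of all genes is not given here. By edgeR 7 had an unadjusted p under 0.05, all with a positive difference, beside 9.56% of all genes in either direction. Of these, RPL7L1 (1.02 ± 0.38) and RPS9 (0.84 ± 0.32) had the lowest adjusted p, 0.382 and 0.384 by edgeR. Without the first control library at 3 dpe the median was 0.06, against 0.07 over all genes. The calls at 3 dpe and their absence at 8 dpe thus do not show that the times differ.

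Some ribosomal proteins were not measured. Of 79 human cytosolic ribosomal proteins, the symbols could match 76, and 68 had a gene model among the 131. RPLP1, RPL17, RPL41, RPS10, RPS25, RPS27A and RPS28 matched no gene model by symbol, and the 3 models of RPL8 stayed below the filter. Of the 69 symbols, 36 had more than 1 model, and 10 had a leading model below 10 CPM. Only uniquely mapped reads were counted, so genes with near-identical copies can be undercounted, and their values are uncertain. Counts were present in all 18 libraries for 123 of the 131 models. The 5 models with the most counts held 24.8% of the counts of the family, and the 20 with the most held 64.0%.

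Genes that make and use ribosomes were read beside them, on the average of the 4 comparisons with edgeR. Of 49 tested genes of ribosome assembly, 30 fell and 1 rose (TAF1B, a part of the RNA polymerase I initiation complex), with a median of -0.64. NIP7, a factor of large-subunit maturation, fell by 1.64 (adjusted p = 2.27e-06), with 28.3 ± 8.0 TMM-scaled CPM with Tig1, 25.6 ± 8.4 with Tig1P155A, against 138.5 ± 60.9 in controls at 3 dpe (SD, n = 3 each). NOP58, a protein of the particles that methylate ribosomal RNA, fell by 1.22 (adjusted p = 1.85e-06), with 70.8 ± 11.6 with Tig1, 51.8 ± 12.1 with Tig1P155A, against 212.5 ± 56.0 in controls. FBL, the methylase of the same particles, fell by 1.32 (adjusted p = 0.000112). At 3 dpe alone 25 of the 49 fell in Tig1 cells, beside 8.35% of all genes, and 27 in Tig1P155A cells, beside 11.5%. At 8 dpe none passed, beside 1.34% of all genes that fell with Tig1 and 1.73% with Tig1P155A. Without the first control library at 3 dpe 28 fell on average, beside 15.8% of all genes, with a median of -0.60.

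Of 60 mitochondrial ribosomal protein genes, whose products make the separate ribosome of that organelle, 28 fell and 2 rose, with a median of -0.57, and 15 fell without the first control library at 3 dpe and 2 rose, beside 15.8% and 18.5% of all genes. Of 20 initiation factors, 6 fell and 1 rose (EIF4G1), with a median of -0.28, and 3 fell without that library (15.8% of all genes). Initiation factors called in either direction numbered 11 without the third control at 3 dpe and 4 without the first control at 8 dpe. Shares of all genes in those fits are not given, so these counts describe the settings and not the list. Among 17 elongation factors and other genes with pyrimidine-tract messenger RNAs, 6 fell and 1 rose, with a median of -0.14. NPM1, a nucleolar chaperone, was at -1.02 (adjusted p = 1.04e-05), and EEF2, which moves the ribosome along the messenger RNA, was at -0.26 (adjusted p = 0.193). The gene model matched to EEF1A1 rose (1.22, adjusted p = 0.000312) with a mean of 52.7 TMM-scaled CPM with Tig1, against 16.6 in controls at 3 dpe. These levels were far below those of RPL7 and RPL4, and whether this model is the main EEF1A1 gene was not tested. Of 17 cytosolic tRNA synthetases, 5 fell and 0 rose, with a median of -0.11. Of 4 tested ribosomal protein genes outside the symbol rule, RPSA fell (-0.55, adjusted p = 0.00671), and 3 were called without the third control library at 3 dpe. The last count likewise stands without a share of all genes and describes that setting. Of 24 genes of translation control, 3 fell, among them MYCN (-2.29, adjusted p = 0.000196), a driver of ribosome synthesis, and 5 rose, among them SESN2 (3.08, adjusted p = 3.39e-05) and DDIT4 (0.90, adjusted p = 0.00667), both inhibitors of mTOR signalling in mammals. On the same comparison, 18.7% of all genes fell and 21.1% rose. The translation control list did not stand out beside these shares. MYCN, SESN2 and DDIT4 are examples from it and do not stand for the list.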

How the data were processed

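RNA of 18 libraries was analysed from a table of counts per gene model that the authors deposited without normalisation. They had mapped reads with STAR 2.7.6a to the axolotl genome AmexG_v6.0-DD, extended by curated HoxA and HoxD models, the mitochondrial genome and ERCC spike-in sequences, and had counted uniquely mapped reads with featureCounts 2.0.1. The submitters' processing notes also name bcl2fastq 2.19.1. Strandedness is not given in the sources used here, so overlapping antisense models cannot be told apart. ERCC sequences held 0 counts and were left out. Counts are not corrected for gene length.

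Groups came from the sample labels. In R 4.3.3 with limma 3.58.1 and edgeR 4.0.16 (version 1.17.8 of data.table for reading), a mean for each of 6 groups was fitted to all 18 libraries (TMM, robust quasi-likelihood test, 12 residual degrees of freedom) for genes that reached 0.5 CPM in 1 library or more, and p-values were adjusted by Benjamini-Hochberg over all genes tested, with a threshold of 0.05. The 10 comparisons were each form against control at each time, their average, the forms against each other, 8 against 3 dpe in each kind of cell, and the difference between the times. For values relative to the family, the sum of the ribosomal protein counts served as library size. All comparisons with control at 1 time share their control libraries. Plots used Python 3.11.15 with matplotlib 3.10.9.

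The alternatives were DESeq2 1.42.0, its size factors in edgeR, library size alone, the 37 mitochondrial genes left out, 2 other filters, only the 6 libraries compared, the replicate number as a block and fits without each single library. Omitting the 4 libraries with over 50% mitochondrial counts, or the first control library at 3 dpe together with mitochondrial genes and on library size alone, was chosen after seeing the data. The test was first tried on simulated counts in which 200 genes were changed by 2 on the log2 scale, up or down. It recovered 34.5% to 40% of them in the single comparisons with control and 87% in their average. False calls numbered 1 to 4 in the single comparisons and 8 in their average. Changed genes were drawn above a lower limit of level, and all other genes kept the same level in every group. In the data 18.7% of all genes fell and 21.1% rose on average, so these rates need not hold there.

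The genes, lists, tests and rule for named genes were chosen with earlier results of these data known. The rule names RPL4, the 5 genes with the most counts, up to 6 rises and 6 falls with the largest average change and up to 4 of each relative to the family among those called, paralogues, and RPLP0, RPLP2, RPL5, RPL11, RPS6, RPS2, RPS3, RPL3 and RPL10. The lists were the 7 pathway lists described in the text and 9 lists of cell type markers. No libraries of a group were alike within sampling noise. The precision of a library is limited by its depth of 9732514 to 23086124 counts, and floors of 3 counts cover counting error only.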

Additional observations from a re-analysis of the deposited data

How the results depend on the processing

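Results depended mainly on the scale and on the first control library at 3 dpe. The share of all genes that fell on average moved with the scale too, from 18.7% with TMM to 29.8% with library size alone. It was 21.6% with mitochondrial genes left out, and 26.4% with these left out and library size alone. Where no share of all genes is given, the counts below describe the settings and are not results about the family. By DESeq2, the ribosomal protein genes that fell at 3 dpe numbered 24 for Tig1 and 32 for Tig1P155A, 1 fell for Tig1 at 8 dpe, 5 were called for 8 against 3 dpe in controls and 1 in Tig1 cells, RPS3 averaged -0.0949, and 2 of the 4 genes outside the symbol rule were called. With DESeq2's size factors in edgeR, RPS3 averaged -0.0948 and 2 genes outside the rule were called. With library size alone, 33 fell for Tig1 and 37 for Tig1P155A at 3 dpe and 60 on average, RPS6 averaged -0.45 and RPS3 -0.58, and calls in the lists numbered 3 outside the rule, 11 for elongation, 15 for initiation and 8 for tRNA synthetases.

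With mitochondrial genes left out, 25 fell for Tig1 at 3 dpe, 1 for Tig1 at 8 dpe and 36 on average, RPS6 averaged -0.0363 and RPS3 -0.20, and 3 genes outside the rule and 13 initiation factors were called. With mitochondrial genes left out and library size alone, 35 fell for Tig1 and 44 for Tig1P155A at 3 dpe, 15 for Tig1 and 4 for Tig1P155A at 8 dpe and 56 on average, RPS6 averaged -0.23 and RPS3 -0.39, and calls numbered 3 outside the rule, 14 for elongation, 17 for initiation, 9 for tRNA synthetases and 48 for mitochondrial ribosomal proteins. When the first control library at 3 dpe was left out as well, 22 fell for Tig1 at 3 dpe, beside 11.6% of all genes. At 8 dpe 18 fell for Tig1, beside 4.63%, and 4 for Tig1P155A, beside 4.68%. On average 43 fell, beside 24.9%. In that setting RPS6 averaged -0.23 and RPS3 -0.35. Calls numbered 3 outside the rule, 14 for elongation, 17 for initiation and 10 for tRNA synthetases.

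With every gene of at least 1 count, 13 fell and 1 rose for Tig1P155A at 3 dpe, 1 rose on average, and 2 were called for 8 against 3 dpe in controls and 2 in Tig1 cells. With at least 1 CPM in at least 3 libraries, RPS3 averaged -0.0232. In fits of only the 6 libraries compared, 9 fell for Tig1 and 12 for Tig1P155A at 3 dpe and 1 for Tig1 at 8 dpe. Without the 4 libraries high in mitochondrial counts, 8 fell for Tig1 and 10 for Tig1P155A at 3 dpe, RPS3 averaged -0.0553 and 4 initiation factors were called.

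Relative to the family, 1 gene was higher, in place of 2, with DESeq2's size factors or TMM over the family and with the replicate block. Replicate numbers did not pair the libraries (residual correlations of -0.26 to 0.18 for the same number and time), and the replicate block moved no other count of calls by over 1.5 times; on the scale of all genes the 19 named gene models kept their side of the threshold under it.

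Leaving out each library in turn gave 3 to 24 falls for Tig1 and 2 to 26 for Tig1P155A at 3 dpe, 0 to 1 for Tig1 at 8 dpe, 11 to 29 falls and 0 to 1 rises on average, 0 to 1 calls for 8 against 3 dpe in controls, and 2 to 6 lower and 0 to 2 higher relative to the family. The log2 ratio of small to large subunit for Tig1P155A at 3 dpe was 0.0151 to 0.0975. Calls numbered 1 to 3 outside the rule, 4 to 11 for initiation and 17 to 39 for mitochondrial ribosomal proteins. RPS3 averaged -0.11 to 0.12 and RPL11 -0.34 to 0.0241. The causes were not tested. None of the 63 gene models under 10 CPM was called on average, and the part of depth in this was not tested.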
